A study of Rattus norvegicus with 6 samples.

Results

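The change from the newborn to the 4-day-old rat ovary was described from 4 arrays of the 6 in the series. Arrays were chosen by their titles alone: 2 of ovaries taken from female pups on the day of birth (P0) and 2 of ovaries taken on postnatal day 4 (P4). None of these animals was treated, and each array held RNA of whole ovaries pooled from about 20 organs, with the pools of a group described as independent in the labels. No strain was given in the sources used here. The other 2 arrays, of ovaries removed at birth and cultured for 7 days, entered the model only to estimate the spread between replicates. Their readings also counted in choosing which probe sets were bright enough to test and which one stood for each listed gene. The design text of the series speaks of progesterone in culture, which no array label gives, so it is unsettled whether both cultured arrays hold 1 condition. RNA was hybridised to Affymetrix Rat Genome U34 arrays (Set A), on which a probe set reports an intensity, in arbitrary units, for 1 transcript or for several similar ones.

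At birth most rat germ cells lie in clusters called nests and are completing meiotic prophase, in which the synaptonemal complex holds homologous chromosomes together. Over the following days the nests break up, many oocytes die, and each survivor is enclosed by flattened pregranulosa cells as a primordial follicle. Some follicles start to grow at once, and their oocytes lay down the zona pellucida, a coat of glycoproteins, while their granulosa cells begin to make inhibin and anti-Müllerian hormone and cells around them begin to make steroids.

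The arrays of a group resembled each other, with a correlation across probe sets of 0.962 at P0 and 0.969 at P4. P0 replicate 1 differed from the other arrays in its controls. GAPDH read 1386.3 there on the 5′ probe set, where the other P0 and P4 arrays read 2005.7 to 2312.3, and 1324.2 on the 3′ probe set, where they read 2162.3 to 2408.4. Its spiked bacterial controls were brighter than on those arrays. Results are therefore also given without it. The actin gene Actb, a common reference, read 5980.7 and 4468.2 at P0 and 5169.2 and 6171.1 at P4 (log2 change 0.13, limma adjusted p = 0.828). Of 8740 probe sets that are no controls, 6118 were bright enough to test, for 3635 genes of 1 symbol. Per the labels, P0 and P4 arrays of the same replicate number share a chip ID batch (A for replicate 1, B for replicate 2), so the change can also be taken within each batch. The number of arrays limits the precision: log2 changes had a median standard error of 0.259.

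In the P4 ovary, the largest fitted rises of named genes were those of the aromatase gene Cyp19a1, the lipoxygenase gene Alox15, the phospholipase gene Pld1, the inhibin gene Inha and the oocyte coat gene Zp2, and the largest fall was that of the meiotic chromosome gene Sycp3. At an adjusted p under 0.05 in limma, 52 probe sets were higher at P4 (0.85% of the 6118 tested) and 14 were lower (0.229%), which named 43 and 9 genes. Another 2 higher and 5 lower probe sets carried no symbol, and 2 higher ones carried several. One of these, S63167_s_at, had the largest log2 change of all, 3.35, from 67.4 and 27.6 at P0 to 983.9 and 270.8 at P4 (adjusted p up to 0.143 without 1 array). P0 and P4 arrays overlapped for none of the 66. Such separation was common, since 18.6% of all tested probe sets were higher and 25.7% lower on both P4 arrays than on both P0 arrays. In both chip batches 88 probe sets were at least 2-fold higher, of which 50 were called, and 41 were at least 2-fold lower, of which 13 were called. Fitted with the chip batch as a replicate block, 194 probe sets were higher (3.17%) and 120 lower (1.96%), and all 66 were among them. An exact permutation test of 2 arrays against 2 cannot give a two-sided p under 0.333, so a single gene cannot pass one.

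**Figure D1:**
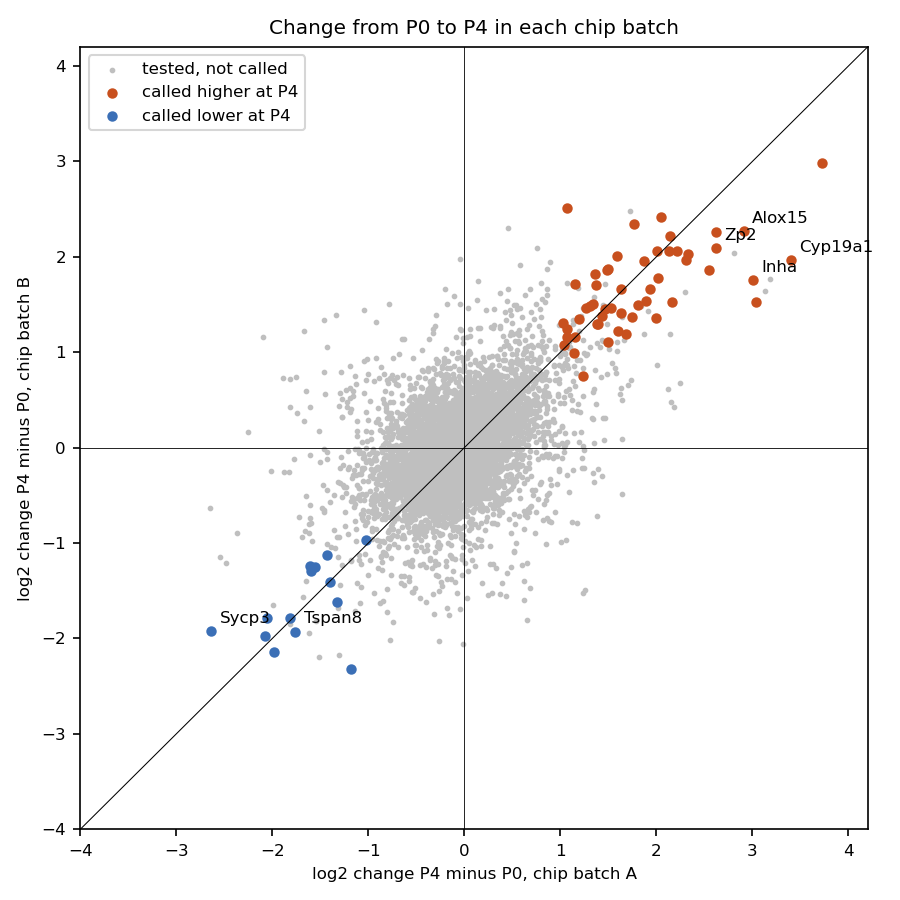
Each point is a tested probe set, with its log2 change from P0 to P4 in chip batch A on the horizontal axis and in batch B on the vertical axis, and a line of equal change. The called probe sets (orange 52 higher, blue 14 lower) lie in the upper right and lower left corners, and over all points the 2 batches' changes correlate at 0.48.

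**Figure D2:**
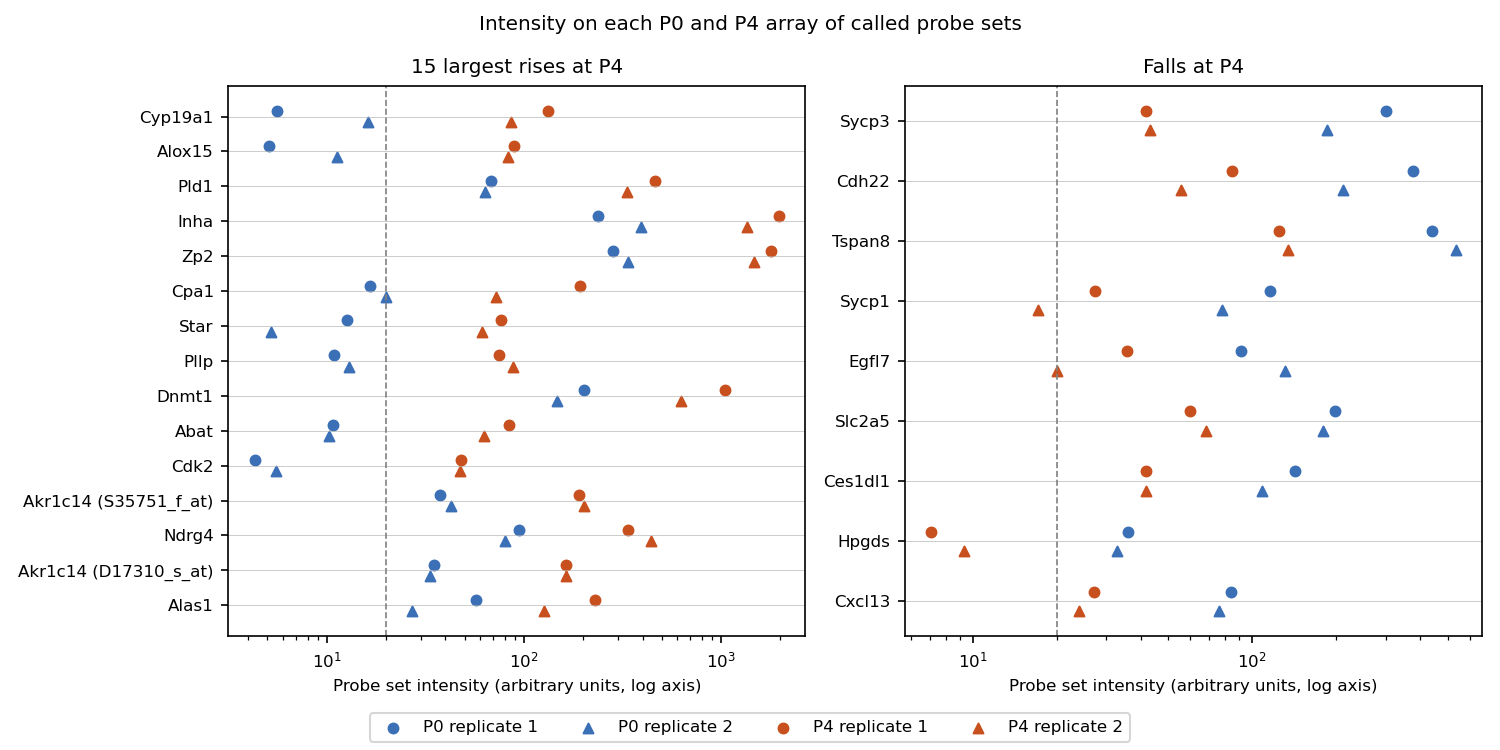
Intensity on a log axis of the 15 probe sets with the largest called rises and the 9 called falls that carry 1 symbol, with circles for replicate 1, triangles for replicate 2, blue for P0 and orange for P4. The dashed line marks 20, the highest reading among control probe sets that lacked a spiked transcript, and in each row the P0 and P4 points do not overlap.

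The coat genes of the oocyte rose. Zp2, which encodes a zona pellucida glycoprotein with a part in sperm binding, read 282.4 and 338.3 at P0 and 1782.3 and 1466.4 at P4. Its log2 change was 2.36 (SE 0.18, limma adjusted p = 0.00155), the smallest adjusted p of all tested probe sets. Both P4 arrays lay far above both P0 arrays, by 2.63 in batch A and 2.09 in batch B, and without P0 replicate 1 the change was 2.23 (adjusted p = 0.013). Zp3, the partner with which it builds the coat filaments, read 519.6 and 566.9 at P0 and 1466.7 and 2082.4 at P4 (log2 change 1.67, SE 0.22, limma adjusted p = 0.00827). Zp1, whose protein cross-links coat filaments, read 71.0 and 74.0 at P0 and 267.9 and 222.4 at P4 (log2 change 1.65, SE 0.21, limma adjusted p = 0.00827). For both, the replicates of a group lay closer together than the groups. The call of Zp1 ended without P0 replicate 2 or P4 replicate 1 (adjusted p up to 0.0759), while those of Zp2 and Zp3 remained without any single array. Of 6 tested genes on an oocyte list these 3 were called higher, against 0.85% of all tested probe sets. Only 7 of the 24 genes of that list are on the array. Because the lists were chosen with earlier results of these data known, such shares describe the list and test nothing. The list's median was 1.18, against -0.04 over all 3635 genes tested. The connexin gene Gja4, whose channels join oocyte and granulosa cell, did not pass, at 119.1 and 138.5 against 218.3 and 214.0 (log2 change 0.72, adjusted p = 0.443). In whole organs, fewer cells of a type and less RNA per cell cannot be told apart, here and in every result that follows.

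The promoters of Zp1 and Zp3 are shown because these coat genes moved together (Zp2 is not shown), with each E-box, the short motif bound by basic helix-loop-helix factors such as the oocyte factor Figla, in capitals. The windows run from 250 bases before to 50 after the gene start and come from RefSeq on the GRCr8 build, written 5′ to 3′ on the gene's strand: Zp1 at chr1:216992099-216992398 and Zp3 at chr12:26334077-26334376, both on the minus strand.
Zp1: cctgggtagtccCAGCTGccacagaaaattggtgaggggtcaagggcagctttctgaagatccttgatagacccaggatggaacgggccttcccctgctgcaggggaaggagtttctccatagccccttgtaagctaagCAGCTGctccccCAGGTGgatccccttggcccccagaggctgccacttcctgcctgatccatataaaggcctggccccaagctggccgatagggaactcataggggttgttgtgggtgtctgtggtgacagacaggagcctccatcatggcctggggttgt
Zp3: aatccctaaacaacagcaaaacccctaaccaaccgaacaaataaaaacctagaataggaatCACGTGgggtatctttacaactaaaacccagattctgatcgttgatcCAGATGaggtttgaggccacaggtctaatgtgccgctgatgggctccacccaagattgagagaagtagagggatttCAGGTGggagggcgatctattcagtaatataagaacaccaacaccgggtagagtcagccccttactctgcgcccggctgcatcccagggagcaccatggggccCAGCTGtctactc
The letters searched for were CANNTG, which read the same on either strand. Zp1 holds 3 matches, at 238, 111 and 99 bases before the start, and Zp3 holds 4, at 189, 142 and 66 bases before it and 38 after it. The first of those in Zp3 is also the palindrome CACGTG. Such matches are common: 72.1% of 33469 rat promoter windows of this length hold at least 1, 16.6% hold 3 or more, and 6.42% hold CACGTG. Zp1 also has a TATA box (TATAAA) 50 bases before its start, a motif found on either strand in 14.2% of the windows.

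The synaptonemal complex genes Sycp3 and Sycp1 fell. Sycp3, a protein of the axes of meiotic chromosomes, read 300.0 and 184.6 at P0 and 41.7 and 43.0 at P4 (log2 change -2.28, SE 0.27, limma adjusted p = 0.00568). It had the largest fall of all named genes, and without P0 replicate 1, its brighter P0 array, the change was -1.94 (adjusted p = 0.0324). Sycp1, the filament that bridges the paired axes, read 115.9 and 77.7 at P0 and 27.3 and 17.1 at P4, at least 4.06-fold lower (limma adjusted p = 0.0281). Here and below, "at least" marks a gene whose dimmer group had an array under 20, the level of control probes with no transcript. Such an array was set to that level, because the fitted log2 change then depends on the pseudocount. The call of Sycp1 ended when any 1 of the 4 arrays was left out (adjusted p up to 0.103). Sycp2, another axis protein, read 120.6 and 56.6 at P0 and 51.8 and 56.0 at P4, and did not pass (log2 change -0.56, adjusted p = 0.521). Its P0 arrays differed more from each other than the lower of them did from P4, and without P0 replicate 1 the change was -0.06. On the meiotic prophase list of 3 tested genes, 2 were called lower, against 0.229% of all tested probe sets. Only these 3 of the 20 genes of that list are on the array, and it too was chosen with earlier results known. The list's median of -1.80 is the fitted change of Sycp1, which depends on the pseudocount.

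The promoters of both called genes are shown with the same motif in capitals, to set them beside those of the coat genes that moved the other way. Sycp1 lies at chr2:193145131-193145430 on the minus strand and Sycp3 at chr7:24761226-24761525 on the plus strand.
Sycp1: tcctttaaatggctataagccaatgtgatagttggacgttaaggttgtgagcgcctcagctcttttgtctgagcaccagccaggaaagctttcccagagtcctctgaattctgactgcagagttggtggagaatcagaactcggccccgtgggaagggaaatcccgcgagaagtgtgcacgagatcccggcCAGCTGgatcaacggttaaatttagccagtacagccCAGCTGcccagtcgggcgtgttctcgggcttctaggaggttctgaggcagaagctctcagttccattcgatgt
Sycp3: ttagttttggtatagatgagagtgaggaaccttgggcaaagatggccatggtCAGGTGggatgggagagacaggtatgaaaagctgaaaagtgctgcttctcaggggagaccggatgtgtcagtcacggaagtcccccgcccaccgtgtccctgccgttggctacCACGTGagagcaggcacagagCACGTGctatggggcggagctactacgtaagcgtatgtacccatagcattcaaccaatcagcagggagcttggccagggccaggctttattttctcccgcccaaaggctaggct
Sycp1 holds 2 E-boxes, at 59 and 23 bases before the start. Sycp3 holds 3, at 198, 85 and 64, of which the last 2 are CACGTG. Among the called genes, 21 of 32 higher and 5 of 8 lower ones with a promoter entry hold an E-box, against 72.1% of all windows.

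Granulosa cell genes rose in part. Inha, the inhibin alpha subunit that granulosa cells secrete to restrain pituitary FSH, read 238.0 and 394.7 at P0 and 1970.3 and 1349.1 at P4 (log2 change 2.38, SE 0.28, limma adjusted p = 0.00568). Another Inha probe set read 273.1 and 368.1 against 1247.5 and 1078.6 (log2 change 1.85, SE 0.21, limma adjusted p = 0.00568). Both probe sets separated the groups, remained called without any single array, and changed by 2.03 and 1.64 without P0 replicate 1. Cyp19a1, the aromatase that turns androgens into estrogens, read 5.6 and 16.2 at P0 and 132.6 and 85.7 at P4, at least 5.33-fold higher (limma adjusted p = 0.00995). Its P0 readings were no higher than those of control probes, and its call ended without P4 replicate 1 (adjusted p = 0.0956). Serpine2, a secreted inhibitor of serine proteases, read 172.5 and 205.0 against 463.8 and 515.5 (log2 change 1.34, adjusted p = 0.0194). Serpine2 lost its call when any 1 of the 4 arrays was left out (adjusted p up to 0.0839). The anti-Müllerian hormone gene Amh missed the threshold with 192.0 and 214.2 against 585.7 and 389.4 (log2 change 1.21, adjusted p = 0.0506, blocked adjusted p = 0.0102, where blocked stands for the limma fit with the replicate block). Of 19 tested granulosa and pregranulosa genes 3 were called higher and none lower, against 0.85% and 0.229% of all tested probe sets. Their median was 0.15. Of the 19 changes 12 were positive and 7 negative. With the block 5 were higher and 2 lower, against 3.17% and 1.96% of all tested probe sets. The 2 lower ones were Krt19 and Fst, whose values are given below. The 5 granulosa markers together read 543.1 and 724.2 at P0 and 2816.8 and 1939.9 at P4, a sum made up mostly of Inha at P4. Among them the inhibin beta subunit gene Inhba read 48.7 and 47.3 against 50.4 and 49.9 (log2 change 0.05) and the FSH receptor gene Fshr 58.8 and 51.8 against 77.8 and 65.8 (log2 change 0.33), and neither passed. The 5 oocyte markers together read 1065 and 1197.3 against 3819.5 and 4132.5, a sum made up mostly of Zp2 and Zp3. Among these markers the receptor gene Kit read 72.9 and 79.6 against 84.3 and 147.3 and did not pass (log2 change 0.51, limma adjusted p = 0.481).

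The cultured arrays, which were 7 days from birth, differed from P4 in their readings of these genes. Inha read 360.7 and 462.3 there and Cyp19a1 13.4 and 18.9, while Zp2 read 1373.9 and 1309.9 and Sycp3 34.6 and 28.1. These are given as values only.

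The promoter of Inha at chr9:84442859-84443158 on the plus strand is shown with a nuclear receptor half-site (AGGTCA on either strand) in capitals, since Inha is known as a target of the orphan receptors Nr5a1 and Nr5a2 in granulosa cells.
Inha: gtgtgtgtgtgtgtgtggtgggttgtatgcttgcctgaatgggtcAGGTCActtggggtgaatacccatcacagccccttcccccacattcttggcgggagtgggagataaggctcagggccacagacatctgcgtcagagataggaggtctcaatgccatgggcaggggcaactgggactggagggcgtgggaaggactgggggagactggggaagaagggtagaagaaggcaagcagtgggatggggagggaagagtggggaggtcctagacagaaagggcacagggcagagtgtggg
It holds 1 match, at 205 bases before the start, and 16.2% of all windows hold at least 1. Among the called genes the same motif lies in 3 of 32 higher and 1 of 8 lower ones. Nr5a2 itself read 5.8 and 5.7 at P0 and 58.6 and 33.9 at P4 and passed only with the replicate block (at least 2.23-fold higher, adjusted p = 0.101, blocked adjusted p = 0.00696). A part of Nr5a2 in the rise of Inha was not tested.

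Of the steroid synthesis genes, Star, Cyp19a1 and Akr1c14 rose. Star, which carries cholesterol into mitochondria for the first step, read 12.7 and 5.2 at P0 and 76.7 and 61.0 at P4 on one probe set, at least 3.42-fold higher (limma adjusted p = 0.0347). On the brighter probe set Star read 36.1 and 5.1 against 137.4 and 63.9 and passed only with the block (adjusted p = 0.122, blocked adjusted p = 0.0018). The P0 arrays of that probe set lie far apart, the lower one under the control level, so the difference is given as at least 3.49-fold. Cyp17a1, the hydroxylase and lyase that makes androgens in theca cells, read 6.8 and 6.3 against 119.4 and 35.9 (adjusted p = 0.0523, blocked adjusted p = 0.00522). Akr1c14, a reductase of 3-keto steroids, read 37.5 and 42.6 against 190.6 and 201.8 (log2 change 2.10, SE 0.21, limma adjusted p = 0.00568). Another Akr1c14 probe set read 34.8 and 33.4 against 163.2 and 163.4 (log2 change 2.03, SE 0.21, limma adjusted p = 0.00568). The replicates were nearly equal in both groups and neither call depended on any single array, but related enzymes can contribute to these probe sets. The call of Star ended without either P4 array or P0 replicate 2 (adjusted p up to 0.172). Cyp11a1, the side-chain cleavage enzyme of the first step, stayed under the control level on every array (6.6 to 14.3). On the list of 18 tested genes, 2 were called higher on the brightest probe set (Cyp19a1 and Akr1c14) and none lower. Over all tested probe sets the shares were 0.85% and 0.229%. With the block 4 were higher and 1 lower, against 3.17% and 1.96% of all tested probe sets. Of the 18 changes 10 were positive and 8 negative, with a median of 0.10 (-0.09 within batch A, 0.16 within batch B).

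Enzymes of cholesterol and of lipid mediators were among the rises. Dhcr7, the last reductase of cholesterol synthesis, read 87.8 and 80.7 at P0 and 374.1 and 219.4 at P4 (log2 change 1.68, SE 0.28, limma adjusted p = 0.0301), with a call that held only when P4 replicate 2 was the array left out. Its brighter probe set did not pass without the block (log2 change 1.39, adjusted p = 0.0664, blocked adjusted p = 0.00249). At earlier steps of the same pathway Mvd, Sqle and Fdft1 had log2 changes of 0.85, 0.72 and 0.59, of which the first passed with the block (blocked adjusted p = 0.0335). None of 17 tested cholesterol genes was called on its brightest probe set, 14 of the 17 changes were positive, and the median was 0.36. Alox15, a lipoxygenase that oxygenates arachidonic acid, read 5.1 and 11.2 at P0 and 88.7 and 83.2 at P4, at least 4.30-fold higher (limma adjusted p = 0.00568). Another Alox15 probe set read 130.7 and 112.1 against 168.3 and 113.8 and did not pass (log2 change 0.18, adjusted p = 0.838), so the probe sets of this gene disagree. Pld1, the phospholipase that releases phosphatidic acid as a signal, read 68.2 and 63.2 against 459.9 and 332.9 (log2 change 2.44, SE 0.26, limma adjusted p = 0.00568), and remained called without any single array. Cds1, which builds phosphoinositide precursors from phosphatidic acid, rose by 1.17 on the log2 scale on one probe set, while another had a change of -0.20. The aldose reductase gene Akr1b1 rose by 0.99. In the opposite direction Hpgds, the prostaglandin D synthase of mast cells and other blood-derived cells, read 35.8 and 32.9 at P0 and 7.1 and 9.3 at P4, at least 1.72-fold lower (limma adjusted p = 0.0453). Another Hpgds probe set, at 29.4 and 28.7 against 18.5 and 16.8, did not pass (adjusted p = 0.433).

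Most cell cycle genes had a positive change, but few were called. Dnmt1, which copies methyl marks onto new DNA strands and has a form particular to oocytes, read 202.8 and 147.7 at P0 and 1047.0 and 624.6 at P4 (log2 change 2.17, SE 0.33, limma adjusted p = 0.0222). Both P4 arrays lay well above P0, and a dimmer Dnmt1 probe set read 46.1 and 36.4 against 95.8 and 82.7 (adjusted p = 0.395, blocked adjusted p = 0.0259). Cyclin B, encoded by Ccnb1 and needed for mitotic and meiotic divisions, read 268.9 and 206.5 against 656.5 and 582.9 (log2 change 1.36, SE 0.24, limma adjusted p = 0.0347) and rose by 1.34 on another probe set. Cdk2, a kinase of the G1 to S transition, read 4.3 and 5.5 against 48.1 and 47.3 on one probe set, at least 2.38-fold higher (limma adjusted p = 0.0347). Its brighter probe set overlapped between the groups, at 69.5 and 33.8 against 83.2 and 41.9 (log2 change 0.25). Dlgap5, a protein of the mitotic spindle, rose by 1.50 and Polr1a, the largest subunit of RNA polymerase I, was at least 2.02-fold higher. Of 34 tested cell cycle and DNA replication genes, 1 was called higher and none lower, against 0.85% and 0.229% of all tested probe sets. For 28 of them the change was positive, against 44.5% positive over all tested genes. Both P4 arrays lay above both P0 arrays for 24 of the 34, against 18.6% of all tested probe sets. The list's median was 0.66 (0.68 in batch A and 0.54 in batch B), and with the block 13 were called higher. The kinase Plk1, the polymerase subunit Pola2 and the phosphatase Cdc25b, none of them called, had log2 changes of 1.06, 1.02 and 1.07 (adjusted p = 0.0563, 0.0561 and 0.103, blocked adjusted p = 0.00952, 0.0144 and 0.011). The calls of Dnmt1 and Ccnb1 both ended without P0 replicate 2 or P4 replicate 1 (adjusted p up to 0.119 and 0.179), that of Ccnb1 also without P4 replicate 2, and that of Cdk2 when any 1 of the 4 was left out (adjusted p up to 0.154).

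Ribosomal protein genes, which are among the brightest on the array, read lower at P4 with no single call. All 37 tested had a negative change, with a median of -0.35 (-0.34 within batch A and -0.39 within batch B), and both P4 arrays lay below both P0 arrays for 32 of them, against 25.7% of all tested probe sets. Quantile normalization, which forces the arrays to 1 distribution, moved the median to -0.11 and left 31 negative and 6 positive. Rpl19 read 8179.5 and 7384.0 at P0 and 5465.0 and 4461.9 at P4 and passed only with the block (log2 change -0.65, adjusted p = 0.0687, blocked adjusted p = 0.0308). Rps3a, Rpl35 and Rpl31 had log2 changes of -0.51, -0.55 and -0.41 and did not pass.

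Several metabolic enzymes rose. Abat, which breaks down the transmitter GABA, read 10.7 and 10.3 at P0 and 83.7 and 62.6 at P4, at least 3.62-fold higher (limma adjusted p = 0.0146), and another Abat probe set was at least 2.77-fold higher. Alas1, the first enzyme of heme synthesis, read 56.9 and 26.9 against 228.7 and 126.5 (log2 change 1.91, SE 0.36, limma adjusted p = 0.0422). The lower P4 reading of Alas1 was still more than the higher P0 reading, though its call ended without P0 replicate 2 or P4 replicate 1 (adjusted p up to 0.213). Ldhc, the lactate dehydrogenase of germ cells, read 2.2 and 2.8 against 32.4 and 28.4, at least 1.52-fold higher (limma adjusted p = 0.0401). The mitochondrial arginase gene Arg2 read 58.8 and 51.8 against 197.7 and 180.5, a rise of 1.64 on the log2 scale. Gchfr, which regulates biopterin synthesis, rose by 1.27 and Rida, a deaminase of reactive imines, by 1.11. Ldhc was the only called gene of 15 tested on the glycolysis list (median 0.02), and none of 27 on the oxidative phosphorylation list was called (median 0.05). The heat shock (30 tested, median 0.11), proteasome (28 tested, median 0.11) and antioxidant (33 tested, median -0.02) lists had no call. Their members with the smallest p included Hsph1 (0.97), Fkbp4 (0.79) and Gsta1 (1.12), each of which passed with the block (blocked adjusted p = 0.0128, 0.0305 and 0.0142).

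Signalling genes that rose belonged to several pathways. Ndrg4, a cytoplasmic protein of the Ndrg family, read 94.1 and 80.5 at P0 and 338.9 and 440.0 at P4 (log2 change 2.06, SE 0.23, limma adjusted p = 0.00568), with a call that remained without any single array. Its other probe set read 161.5 and 91.3 against 347.6 and 559.0 (log2 change 1.79, adjusted p = 0.0347). Pllp, the membrane protein plasmolipin, read 10.9 and 12.9 against 74.5 and 88.2, at least 4.05-fold higher (limma adjusted p = 0.00568), and also remained called without any single array. Nrg1, a ligand of the ErbB receptors, rose by 1.54 on one probe set (adjusted p = 0.0453), while the one used for its list had a log2 change of 1.21 (adjusted p = 0.0948, blocked adjusted p = 0.00856). Nrg1 has further probe sets for its splice forms, one of which had a negative change, -0.29. Kcnh1, a voltage-gated potassium channel, was at least 3.61-fold higher, the adenylyl cyclase Adcy5 at least 2.28-fold and Madd, an exchange factor for Rab proteins, at least 1.43-fold. The adenosine receptor Adora2b rose by 1.44 and the nicotinic receptor subunit Chrna7 by 1.40, although another Chrna7 probe set read 34.8 and 43.0 against 29.3 and 38.3. The connexin Gja5, found in arterial endothelium and heart, was at least 2.56-fold higher on one probe set and overlapped between the groups on a brighter one (119.6 and 145.5 against 135.2 and 161.4).

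Ligand and receptor lists held few calls besides. On the TGF-beta superfamily list 1 of 26 genes was called, Inha, and the median was -0.10. Fst, the follistatin that binds activin, read 1010.6 and 813.9 at P0 and 560.3 and 407.1 at P4 and passed only with the block (log2 change -0.91, adjusted p = 0.101, blocked adjusted p = 0.011). None of 37 receptor tyrosine kinase genes was called, 31 of their changes were negative and the median was -0.23. The growth factor Ptn read 740.2 and 702.9 against 398.6 and 352.3 (log2 change -0.93, adjusted p = 0.0825, blocked adjusted p = 0.011), and Fgfr2 changed by -0.96 (adjusted p = 0.162, blocked adjusted p = 0.0281). None of 17 insulin-like growth factor genes (median -0.31) was called without the block. With it 1 was higher and 4 lower, against 3.17% and 1.96% of all tested probe sets. In that system H19, a maternally expressed noncoding RNA, read 1870.0 and 2970.6 at P0 and 592.5 and 1121.3 at P4 (log2 change -1.52, adjusted p = 0.101, blocked adjusted p = 0.000762). The binding proteins Igfbp5 and Igfbp2 changed by -1.23 and -0.84 (blocked adjusted p = 0.00856 and 0.0257) and the adaptor Grb14 by 1.00 (blocked adjusted p = 0.0168). For H19 the P0 arrays and the P4 arrays each differed between batches while the change was alike in both, -1.65 in batch A and -1.40 in batch B. The Wnt and Notch list (16 tested, median -0.07), the nuclear receptor list (29 tested, median -0.02) and the retinoid list (11 tested, median -0.17) had no call. Rbp4, the carrier of retinol, read 197.2 and 317.7 against 99.3 and 105.7 and passed with the block (log2 change -1.23, adjusted p = 0.167, blocked adjusted p = 0.00856).

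Some matrix genes rose. Col11a1, a minor fibrillar collagen chain of cartilage and embryonic connective tissue, read 34.2 and 16.7 at P0 and 118.3 and 90.7 at P4, at least 3.96-fold higher (limma adjusted p = 0.0304). Plod2, which hydroxylates lysines of collagen, rose by 1.30 and Pcolce, which speeds the cleavage of procollagen, by 1.07 on the log2 scale. Both had a P4 range above the P0 range, at 458.8 and 299.7 against 158.0 and 135.0 for Plod2. Postn, a matrix protein of connective tissue, read 1390.8 and 1587.2 against 609.1 and 692.1 and passed only with the block (log2 change -1.18, adjusted p = 0.0525, blocked adjusted p = 0.00258). Of 30 collagen and matrix genes 2 were called higher and none lower, against 0.85% and 0.229% of all tested probe sets. Their median was -0.12. With the block 2 were higher and 3 lower, against 3.17% and 1.96% of all tested probe sets. Clu, a secreted chaperone, read 139.1 and 175.6 against 483.3 and 465.9 (log2 change 1.56, SE 0.20, limma adjusted p = 0.00827) and was the only called gene of 19 on the apoptosis list (median 0.00), with a call that ended without P4 replicate 1 (adjusted p = 0.0635). Cpa1, a carboxypeptidase known from the pancreas, read 16.6 and 19.9 against 192.5 and 71.8, at least 5.88-fold higher (limma adjusted p = 0.0301). Its P4 arrays differed more than 2-fold, and its call held only when P4 replicate 2 was left out. The protease list of 33 genes had 1 call, Serpine2, and a median of -0.12, and A2m, a broad protease inhibitor of plasma, read 203.8 and 191.3 against 28.6 and 82.2 (adjusted p = 0.0583, blocked adjusted p = 0.00739).

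Beside Sycp3, Sycp1 and Hpgds, 6 named genes fell. Cdh22, a cadherin, read 374.8 and 210.4 at P0 and 84.3 and 55.6 at P4 (log2 change -1.92, SE 0.31, limma adjusted p = 0.0262). The call ended without P0 replicate 1 (log2 change -1.51, adjusted p = 0.0756) or P4 replicate 2. Tspan8, a tetraspanin of epithelia, read 440.3 and 535.0 against 124.5 and 134.7 (log2 change -1.85, SE 0.21, limma adjusted p = 0.00568). Its replicates lay close together in both groups, and its call remained without any single array. Egfl7, a protein secreted by endothelial cells, read 90.8 and 131.2 against 35.7 and 20.0 (log2 change -1.75, SE 0.32, limma adjusted p = 0.0401). The fructose transporter Slc2a5 read 197.2 and 179.8 against 60.1 and 68.5 (log2 change -1.45, SE 0.21, limma adjusted p = 0.0185), while its other probe set had a change of -0.75 and did not pass (adjusted p = 0.269). The carboxylesterase gene Ces1dl1 read 142.7 and 108.5 against 41.5 and 41.5 (log2 change -1.43, SE 0.24, limma adjusted p = 0.0301). Cxcl13, a chemokine that draws B cells, read 84.2 and 76.2 against 27.1 and 24.0 (log2 change -1.40, SE 0.25, limma adjusted p = 0.0376). Each of these 4 had both P4 arrays below both P0 arrays. Egfl7, Ces1dl1, Cxcl13 and Hpgds lost their calls when any 1 of the 4 arrays was left out (with the highest adjusted p running from 0.144 for Cxcl13 to 0.245 for Egfl7), and Slc2a5 kept its call only when P4 replicate 2 was left out (adjusted p up to 0.120). On the adhesion list of 29 genes Cdh22 was the only call, and the median was -0.04. In culture Tspan8 read 623.0 and 489.6 and Cxcl13 244.9 and 163.8.

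Lists for the other cells that a whole ovary holds had no call on the brightest probe set of any member, and their medians differed in sign. The mast cell list had a median of -0.86 with 6 of 6 genes negative. Its protease genes Mcpt1 and Cpa3 read 57.5 and 96.1 against 28.5 and 26.4, and 145.9 and 213.2 against 93.9 and 99.7, and both passed with the block (blocked adjusted p = 0.0243 and 0.0437). The fall of Hpgds, which mast cells express, stands beside these values, and the part of mast cells in it was not tested. The macrophage and leukocyte list (15 tested) had a median of -0.45, and the complement gene C1qb read 44.2 and 116.4 at P0 and 10.4 and 19.4 at P4 (adjusted p = 0.0637, blocked adjusted p = 0.004). Of the 15 changes 11 were negative and 4 positive. The defining macrophage receptor gene Csf1r was at or under the control level on every P0 and P4 array. The markers Cd14 and Ptprc overlapped between the groups. Cd14 read 99.7 and 69.0 against 64.3 and 90.3 (log2 change -0.11), and Ptprc 34.2 and 23.2 against 29.6 and 41.6 (log2 change 0.25). The erythroid list (7 tested) had a median of -0.66, and the globin gene Hbb, whose probe set can read related globins, was at 3738.1 and 3809.8 against 2776.5 and 2040.9 (adjusted p = 0.291, blocked adjusted p = 0.0486). The globin gene Hbe1 read 38.5 and 43.1 against 19.8 and 6.6, at least 2.04-fold lower (adjusted p = 0.162, blocked adjusted p = 0.0492). Its list was not uniform, with 5 changes negative and 2 positive, the highest at 1.32. Among surface epithelium genes (8 tested, median -0.37), the keratin Krt19 read 1103.3 and 1131.1 against 361.7 and 571.2 (log2 change -1.28, adjusted p = 0.0523, blocked adjusted p = 0.00467), while Aldh1a1 read 287.3 and 326.4 against 525.9 and 568.9 (log2 change 0.82, blocked adjusted p = 0.0217). The endothelium list (6 tested) had a median of -0.32, with the caveolin Cav1 at -1.01 (blocked adjusted p = 0.0146), and Vwf at or under the control level. The endothelial markers together read 280.6 and 282.5 at P0 and 190.3 and 275.3 at P4, so only P4 replicate 1 lay well below P0. Batch A gave a list median of -0.56, whereas batch B gave -0.04. Pecam1 read 47.8 and 71.8 against 43.8 and 83.2 (log2 change 0.04), and Kdr 98.6 and 121.9 against 62.8 and 106.1 (-0.39). Both overlapped between the groups. Flt1 read 121.8 and 77.0 against 73.1 and 76.7 (-0.34). The part of these markers in the fall of Egfl7 was not tested. The smooth muscle and pericyte list (11 tested) had a median of 0.44, with the calponin Cnn1 at 0.96 (blocked adjusted p = 0.0308). Among its 11 changes 9 were positive and 2 negative. The marker Des was lower, at 14.8 and 62.8 at P0 and 10.3 and 13.3 at P4, and did not pass (limma adjusted p = 0.439). Acta2 overlapped between the groups, at 349.6 and 670.6 against 492.8 and 879.7.

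Genes of fat cells and of neighbouring organs served as a check of what else was dissected. On the adipocyte list (9 tested, median 0.09) the fatty acid carrier Fabp4 read 9.3 and 1.5 at P0 and 111.4 and 30.1 at P4 and passed only with the block (adjusted p = 0.0574, blocked adjusted p = 0.0021), and the lipase Lpl had a log2 change of 0.83 (blocked adjusted p = 0.0421). Of that list's 9 changes 5 were positive and 4 negative, and its median was -0.05 in batch A and 0.32 in batch B. Fabp4 is also known from capillary endothelium. Kidney and adrenal genes (8 tested, median 0.06), neural genes (13 tested, median -0.08), skeletal muscle genes (8 tested, median -0.11), liver genes (8 tested, median -0.19) and immediate early genes (26 tested, median -0.11) had no call with or without the block. The kidney genes Slc12a1 and Kap, the adrenal gene Cyp11b2 and the muscle genes Acta1 and Myog were at or under the control level in both groups. The markers Aqp2, Cyp21a1, Alb and Ckm were under that level on some of the P0 and P4 arrays. Some others read above it on every P0 and P4 array. The muscle gene Myh3 read 238.7 and 218.1 at P0 and 188.9 and 180.4 at P4. The kidney gene Umod read 24.6 and 41.8 against 30.8 and 44.1, and the liver gene Afp 42.0 and 36.4 against 23.9 and 21.0. Where these readings came from was not tested.

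**Figure D3:**
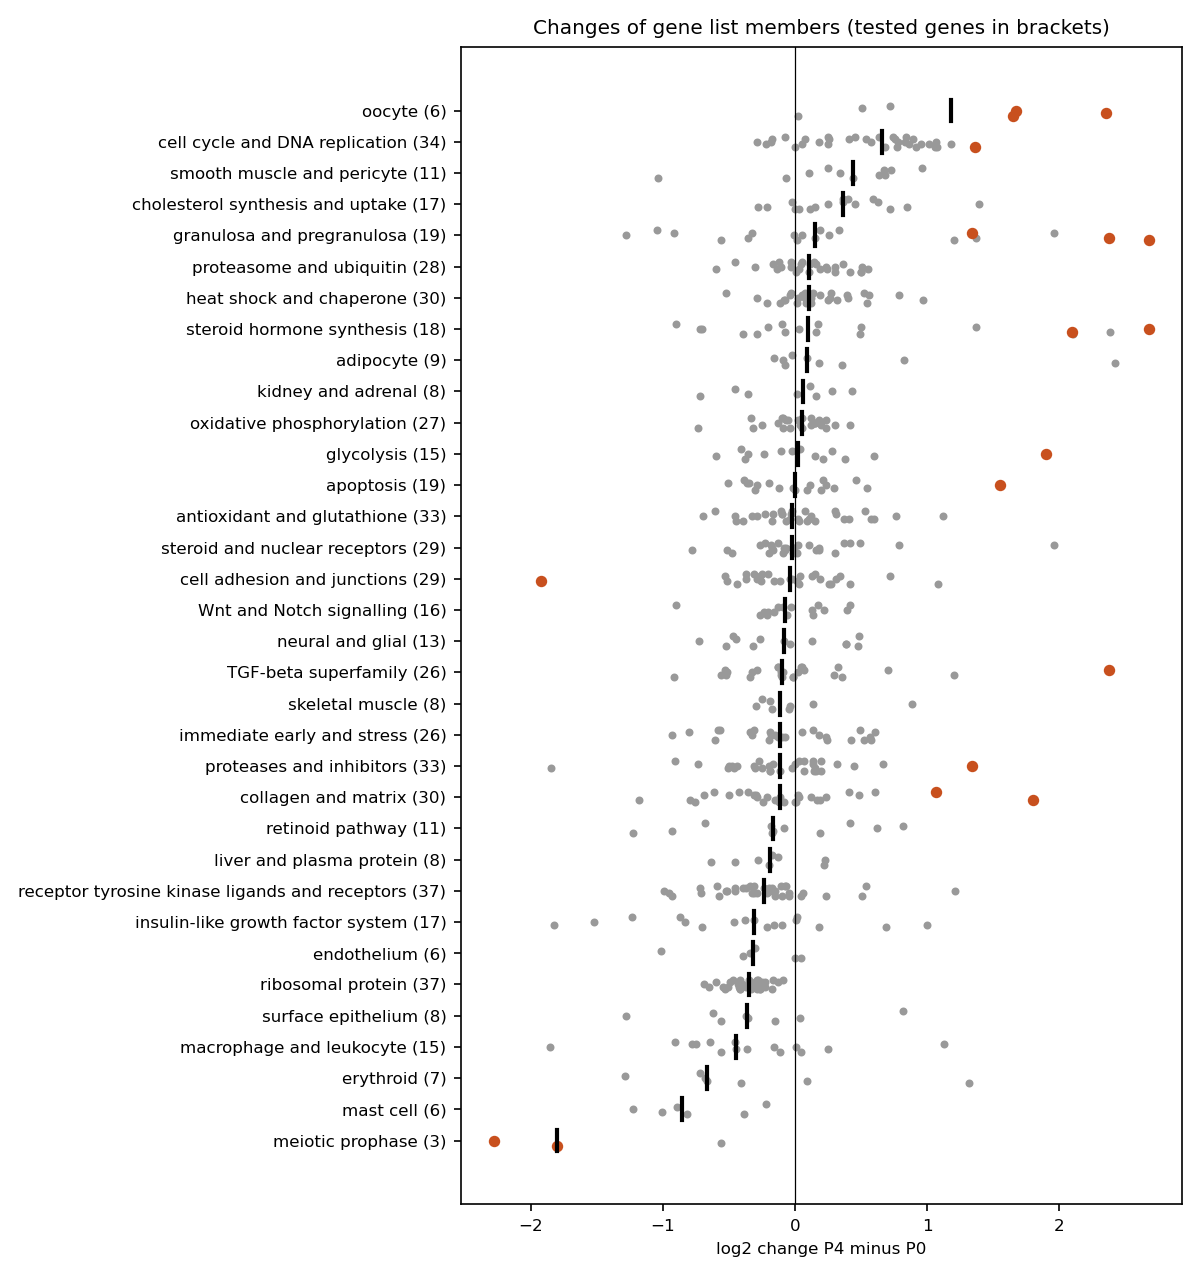
Each point is a tested gene of a list, placed by its log2 change from P0 to P4 on the brightest probe set, with called genes in orange and the list's median as a black bar; the number of tested genes stands in brackets. The medians run from -1.80 for meiotic prophase to 1.18 for the oocyte list. That of meiotic prophase is the fitted change of Sycp1, which depends on the pseudocount. Cell cycle and DNA replication stands at 0.66, and all 37 ribosomal protein genes lie below 0 (31 of them after quantile normalization).

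The remaining called genes were Myo5b, a motor of vesicle transport (log2 change 1.41), the mitochondrial disaggregase gene Clpb (1.40), the LIM protein gene Fhl2 (1.15), Ccdc124 (1.42) and Vwa8 (1.16). Over the called genes, 20 had more than 1 tested probe set. For 5 of these each tested probe set was called, and of the 19 others not called 16 had the sign of the called one. Of the 48 higher and 9 lower probe sets with 1 symbol, 24 and 2 stayed called without P0 replicate 1, 12 and 3 without P0 replicate 2, 11 and 3 without P4 replicate 1, and 26 and 3 without P4 replicate 2. On the P0 and P4 arrays alone with no block, 19 and 2 stayed called. No sign changed among them in any of these fits. The calls of Nrg1, Gja5, Adcy5, Adora2b, Madd, Clpb, Polr1a, Ldhc, Gchfr, Rida, Cds1, Akr1b1, Pcolce, Fhl2 and Vwa8 ended whichever of the 4 arrays was left out (with the highest adjusted p running from 0.131 for Clpb to 0.230 for Cds1). Those of Kcnh1, Myo5b, Plod2 and the dimmer Abat probe set held only when P4 replicate 2 was left out (with the highest adjusted p running from 0.151 for Myo5b to 0.220 for Abat). Arg2, Ccdc124 and the brighter Abat probe set lost theirs without P0 replicate 2 or P4 replicate 1 (0.0759, 0.0952 and 0.119), as did Dlgap5 and Col11a1 (0.124 and 0.154). Chrna7 kept its call only without P0 replicate 1 (adjusted p up to 0.179), and the brighter Ndrg4 probe set only without P0 replicate 1 or P4 replicate 1 (0.164).

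**Figure D4:**
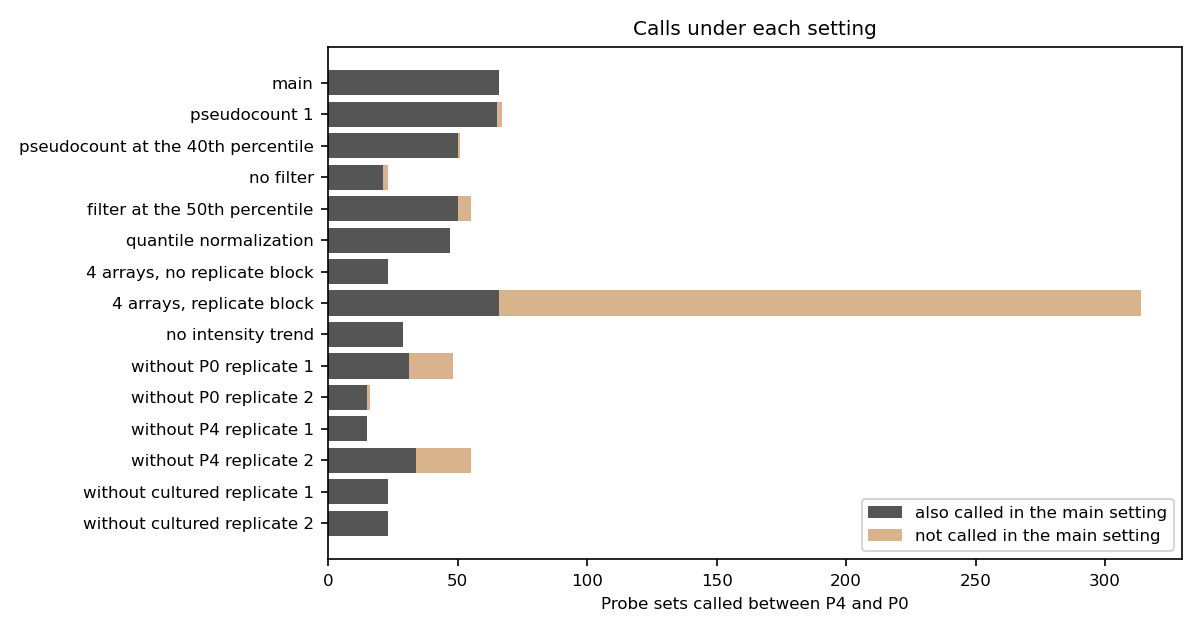
Bars give the number of probe sets called between P4 and P0 under each setting, with the part also called in the main setting in dark grey. The count runs from 15 without P4 replicate 1 to 314 with the replicate block on 4 arrays, against 66 in the main setting.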

How the data were processed

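The authors deposited linear intensities, 1 per probe set and array. The mean after trimming 2% at each end was 125.2 on every array, so no further scaling was applied. Extraction used Trizol and labelling followed the manufacturer, per the labels. How the intensities were summarised is not given in the sources used here. These deposited intensities were turned into log2(intensity + 7.7), the pseudocount being the 20th percentile of all values. The 2622 probe sets whose mean over all 6 arrays was under the 30th percentile were left out. Tests used limma 3.58.1 in R 4.3.3, with 3 group means on all 6 arrays, a variance trend (3 residual and 6.45 prior degrees of freedom), two-sided tests and Benjamini-Hochberg adjustment over 6118 probe sets.

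The replicate numbers pair the P0 and P4 arrays because the labels give each number a shared chip ID batch, and the arrays' deviations from their group means correlated at 0.33. The fit with the replicate block uses 4 arrays, with 1 residual and 8.71 prior degrees of freedom, and calls 194 higher and 120 lower. Of 8799 probe sets, 59 are controls, 7018 carry 1 symbol in the platform annotation, 308 several and 1473 none, and 6994 matched RefSeq gene entries (GRCr8). Promoters were taken from RefSeq for 32 of 43 higher and 8 of 9 lower genes.

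Members and the 34 gene lists were chosen with earlier results of these data known. Named were called probe sets with 1 symbol, the 15 largest rises and all falls with their array values, for each list the 4 or fewer members of smallest p, Actb, and at most 2 probe sets with no single symbol in each direction. Also mentioned are fixed markers of ovarian cell types (Csf1r, Cd14, Ptprc, Cyp11a1, Vwf, Pecam1, Kdr, Flt1, Kit, Inhba, Fshr, Acta2, Des). Fixed markers of neighbouring organs are Slc12a1, Kap, Umod, Aqp2, Cyp11b2, Cyp21a1, Acta1, Myog, Myh3, Ckm, Afp and Alb. A list gene was represented by its brightest probe set. Other settings tried were a pseudocount of 1 or of 24.9, no filter or the 50th percentile, quantile normalization, 4 arrays with or without the block, no variance trend, and each array left out in turn.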

Additional observations from a re-analysis of the deposited data

How the results depend on the processing

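Against 52 higher and 14 lower probe sets, the count was 54 and 13 with a pseudocount of 1 and 44 and 11 with a filter at the 50th percentile. It was 38 and 13 with a pseudocount of 24.9, 38 and 9 with quantile normalization, 18 and 5 with no filter, 22 and 7 with no variance trend, 19 and 4 on 4 arrays with no replicate block, and 194 and 120 with the replicate block. Leaving out 1 array at a time gave 11 to 41 higher and 3 to 14 lower. Leaving out either cultured array gave the same 19 and 4 as the 4 arrays, because the other cultured array then adds nothing to the spread. Of the 66 probe sets, 65 were shared with a pseudocount of 1, 47 with quantile normalization, 31 without P0 replicate 1 and 15 without P4 replicate 1. In all 14 alternatives 9 higher and 2 lower probe sets were called. At an unadjusted p under 0.05, 793 probe sets passed. Among list members named for their small p (4 or fewer in each list) and not called, 4 changed sign when an array was left out. These were Slc2a4 (-0.17 to 0.89, negative without P0 replicate 1), Pparg (-0.13 to 0.49, negative without P0 replicate 2), Jag1 (-0.033 to 0.86, negative without P0 replicate 2) and Hp (-0.014 to 0.47, negative without P4 replicate 2). Other list members were not counted, and some of them also changed sign, such as Acta2 (0.44, and -0.03 without P0 replicate 1). With the block 41 of the named members passed that did not pass without it. The cause of these differences was not tested. Signal limits the rest: 16 of the 52 higher and 3 of the 14 lower probe sets had an array of their dimmer group under the control level of 20, so their fold changes are lower bounds.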
